A study of Danio rerio with 10 samples.

Results

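The mir-200 family of epithelial microRNAs was followed in the livers of 10 adult male zebrafish, 5 with hepatocellular carcinoma driven by activated β-catenin (ABC) and 5 wild type (WT). The ABC fish, 4 months old, carried Tg(fabp10a-pt-beta-cat), in which the hepatocyte promoter of fabp10a drives the oncogene, and the WT fish were their non-transgenic siblings of the same age. Each library held the small RNA of 1 fish, numbered 6 to 10 for ABC and 1 to 5 for WT, and HCC had been diagnosed from stained sections in the ABC livers. The libraries were made from bulk liver, in which fewer cells of a type and less RNA per cell cannot be told apart.

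The members were taken by name: the row for mir200a, and each row whose gene name is mir200b, mir200c, mir141, mir429a or mir429b. This gave 6 of the 272 pre-miRNA rows in a table of 32266 genes. They were mir200a (ENSDARG00000081399), MIR200B (ENSDARG00000081868), dre-mir-429 (ENSDARG00000081438), mir141 (ENSDARG00000080489), MIR200B (ENSDARG00000080713) and mir429b (ENSDARG00000082968). Of these, dre-mir-429 was matched through its RefSeq synonym dre-mir-429a. The name MIR200B stands on 2 rows and the name mir200c on 0, so the rows called MIR200B are told apart here by their Ensembl identifiers, and neither is assigned to mir-200c.

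MicroRNAs of the mir-200 family are hallmarks of epithelial cells. They bind the transcripts of ZEB1 and ZEB2, transcription factors that repress E-cadherin, and in mammals their loss accompanies the change of epithelial cells to a mesenchymal state. In mammalian liver the family is known mainly from the bile duct epithelium, and in zebrafish it is known from ionocytes of the skin. Vertebrates carry the family in a pair of clusters, and the members fall into 2 seed classes: mir-200b, mir-200c and mir-429 share one seed, while mir-200a and mir-141 share another. In the RefSeq annotation of zebrafish assembly GRCz12tu, mir200b, mir200a and dre-mir-429 are consecutive genes in that order, and mir429b, mir141 and mir200c are consecutive genes elsewhere. That assembly differs from the GRCz10 build of the counts and was used only for names and neighbors.

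Libraries held 1236439 to 2408262 counts in ABC livers and 1423307 to 2609547 in WT livers, ranges that overlapped. The row with the most counts took 38.6% ± 6.23 of pre-miRNA counts in ABC livers and 69.8% ± 3.15 in WT livers (SD, n = 5 each). The levels below are therefore normalized counts in CPM, which edgeR scales to a common library size with a TMM factor for each library. A pre-miRNA was called dysregulated at an adjusted p under 0.05 by edgeR's quasi-likelihood test, corrected over the 144 pre-miRNAs that passed the filter on low counts, together with an L2FC (log2 fold-change, ABC against WT) of at least 0.5 in size.

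Of the family, 3 rows rose in ABC livers: mir200a by 1.65, MIR200B (ENSDARG00000081868) by 1.40 and dre-mir-429 by 1.03 in L2FC. The rows mir141 and MIR200B (ENSDARG00000080713) did not pass the test, which does not by itself show that they differed from those that rose, and the ratio of mir200a to mir141 given further on did not pass correction. Of the 6 members, 5 passed the filter and 3 of these were called up, with 0 called down. Over all 144 pre-miRNAs tested, 34 (23.6%) were called up and 28 (19.4%) were called down, so 43.1% were called in either direction. The median L2FC of these 144 was −0.11, with quartiles of −0.69 and 0.92.

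The microRNA gene mir200a had 7599, 9491, 14419, 11504 and 12701 CPM in ABC replicates 6 to 10, against 3559, 4295, 2677, 4376 and 2903 CPM in WT replicates 1 to 5. The lowest ABC liver, replicate 6, lay above the highest WT liver, replicate 4, so the groups did not overlap. Mean levels were 11143 ± 2673 CPM in ABC livers and 3562 ± 778 CPM in WT livers (SD, n = 5 each), 3.13 times as high in ABC. The L2FC was 1.65 with a standard error of 0.23 and a 95% interval of 1.15 to 2.14 (edgeR quasi-likelihood test, adjusted p = 1.41e-04). A two-sided exact permutation test of the 10 fish gave p = 0.00794, the smallest value that 5 against 5 allows.

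The row MIR200B (ENSDARG00000081868), of the other seed class, followed mir200a closely. It had 5650, 6897, 11954, 9686 and 10274 CPM in ABC replicates 6 to 10, against 3141, 3672, 2657, 4930 and 2461 CPM in WT replicates 1 to 5. Again ABC replicate 6 was the lowest of its group and WT replicate 4 the highest of the other, and the groups did not overlap. The L2FC was 1.40 with a standard error of 0.26 (95% interval 0.82 to 1.97, edgeR adjusted p = 0.00119), and the exact permutation p was 0.00794. Every ABC liver lay above every WT liver for these 2 members, as it did for 26 of the 144 pre-miRNAs tested (18.1%).

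The row dre-mir-429, also of the mir-200b seed class, rose by less. It had 756, 1421, 1254, 1723 and 1438 CPM in ABC replicates 6 to 10, against 627, 660, 470, 827 and 651 CPM in WT replicates 1 to 5. Here the groups overlapped through a single fish, since ABC replicate 6 lay below WT replicate 4 while the other 4 ABC livers lay above all 5 WT livers. The L2FC was 1.03 with a standard error of 0.24 (95% interval 0.49 to 1.56, edgeR adjusted p = 0.00528), and the exact permutation p was 0.0159. The intervals of the 3 risen members overlapped one another.

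**Figure D1:**
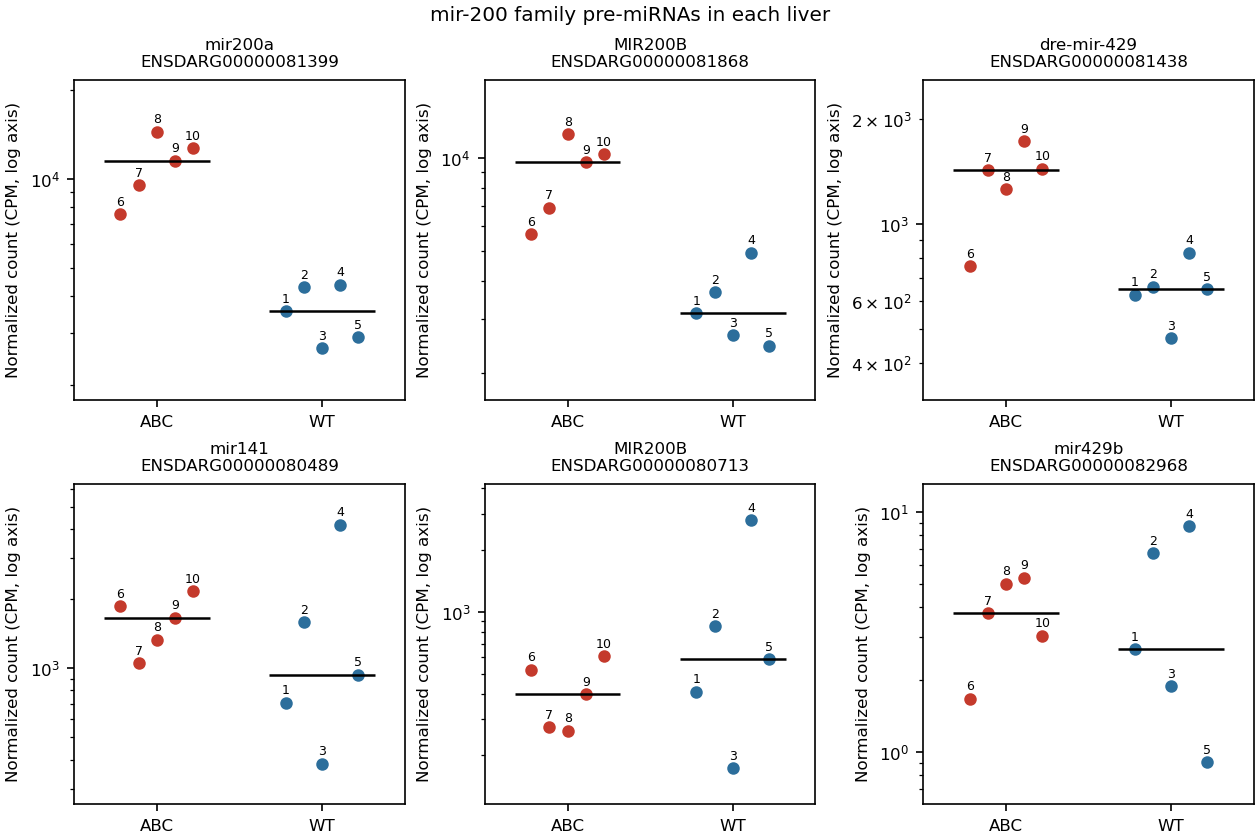
Normalized counts (CPM, log axis) of the 6 mir-200 family rows, with ABC livers left and WT livers right in each panel; points are fish, numbers are replicates and bars are group medians. For mir200a the ABC livers sit between 7599 and 14419 CPM and the WT livers between 2677 and 4376 CPM, whereas for mir141 and MIR200B ENSDARG00000080713 the highest point is WT replicate 4.

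The gene mir141 shares its seed class with mir200a. It had 1858, 1047, 1329, 1653 and 2152 CPM in ABC replicates 6 to 10, against 707, 1582, 385, 4190 and 937 CPM in WT replicates 1 to 5. WT replicate 4 was the highest of all 10 livers and WT replicate 3 the lowest, so the WT range enclosed that of ABC. The L2FC was 0.04 with a standard error of 0.54 and an interval of −1.14 to 1.23 (edgeR adjusted p = 0.952), an interval that leaves room for a change of more than 2-fold either way. Median levels were 1653 CPM in ABC livers and 937 CPM in WT livers, and without WT replicate 4 the L2FC of mir141 was 0.90 (edgeR adjusted p = 0.0804).

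The other row named MIR200B (ENSDARG00000080713) had 522, 274, 264, 398 and 610 CPM in ABC replicates 6 to 10, against 409, 849, 174, 2794 and 586 CPM in WT replicates 1 to 5. As with mir141, WT replicate 4 was the highest liver and WT replicate 3 the lowest, and the groups overlapped. The L2FC was −1.22 with a standard error of 0.62 and an interval of −2.58 to 0.15 (edgeR adjusted p = 0.134). Without WT replicate 4 it was −0.22 (adjusted p = 0.697), so the size of this difference rested on that library.

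The hairpin mir429b was close to the floor of the data. Its raw counts were 3, 12, 6, 15 and 6 in ABC replicates 6 to 10, against 3, 9, 3, 17 and 1 in WT replicates 1 to 5. It summed to 42 counts in ABC livers and 33 counts in WT livers, did not pass the filter, and had 3.77 ± 1.49 CPM in ABC livers and 4.18 ± 3.36 CPM in WT livers (SD, n = 5 each; two-sided exact permutation p = 0.810). No difference in mir429b was detected, and one that is not small could also have been missed at this depth. DESeq2, run without that filter, gave it an L2FC of −0.27 with a standard error of 0.67.

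**Figure D2:**
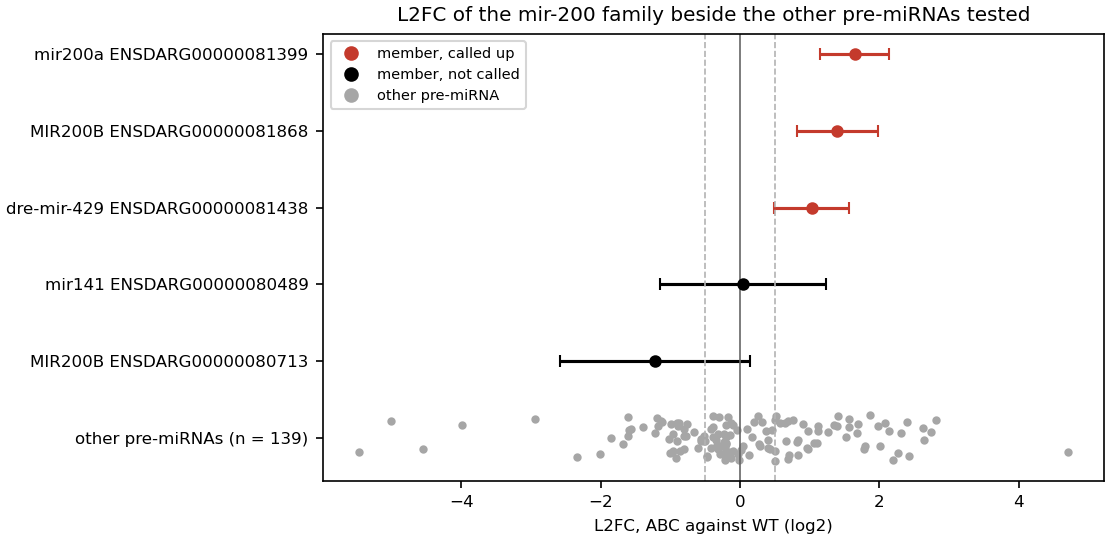
L2FC (ABC against WT, log2 axis) of the 5 tested members with 95% intervals, above the 139 other pre-miRNAs tested, drawn as grey points. Dashed lines mark an L2FC of 0.5 in either direction; mir200a at 1.65, MIR200B ENSDARG00000081868 at 1.40 and dre-mir-429 at 1.03 were called up, and the intervals of mir141 and MIR200B ENSDARG00000080713 cross 0.

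Relative to the median pre-miRNA, the L2FC was 1.76 for mir200a, 1.51 for MIR200B (ENSDARG00000081868), 1.14 for dre-mir-429, 0.16 for mir141 and −1.10 for MIR200B (ENSDARG00000080713). This comparison matters because the scaling sets the zero point. With the total pre-miRNA count as the only scaling, the median of all pre-miRNAs moved by 0.78 and the split of calls became 65 up and 10 down, against 34 up and 28 down with TMM. The values relative to that moved median were 1.73 for mir200a, 1.48 for MIR200B (ENSDARG00000081868), 1.15 for dre-mir-429, 0.18 for mir141 and −1.06 for MIR200B (ENSDARG00000080713). A change of scaling moves all rows by about the same amount, so these values stay close to the former ones by construction. They do not show whether the median pre-miRNA is the right zero point. The sign of the unadjusted mir141 value depended on the scaling, at 0.84 with the total count and −0.01 with DESeq2's size factors, and mir141 was called under neither.

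**Figure D3:**
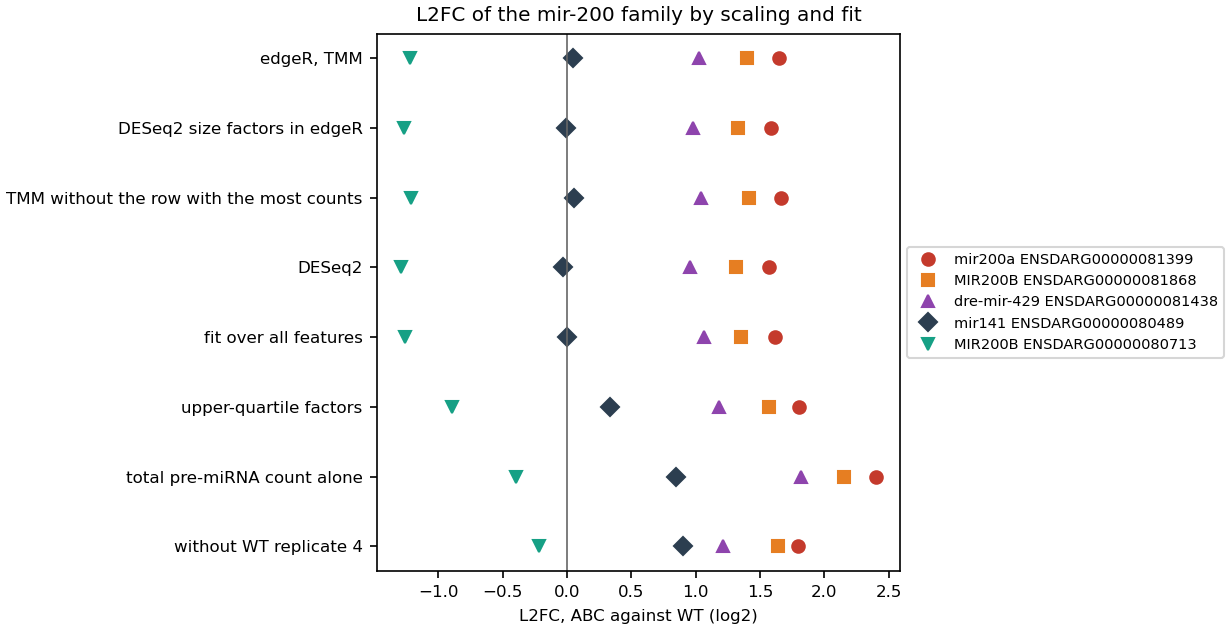
L2FC (ABC against WT, log2 axis) of the 5 tested members, 1 symbol each, under 8 scalings, fits or sample sets. The 3 risen members stay right of 0.5 in every line, mir141 lies on either side of 0 from −0.03 to 0.90, and MIR200B ENSDARG00000080713 lies between −1.29 and −0.22.

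Once each group's mean was subtracted, the closest pairs of rows were mir200a with MIR200B (ENSDARG00000081868) and mir141 with MIR200B (ENSDARG00000080713). Across the 10 fish, log2 CPM of the first pair had a Pearson r of 0.98, and after subtraction of each group's mean r was 0.95. For the second pair these values were 0.81 and 0.99. Between the pairs r was lower over all fish: mir200a and mir141 had 0.44 and, after subtraction of the group means, 0.53, and mir200a and MIR200B (ENSDARG00000080713) had −0.16 and 0.44. For mir200a and dre-mir-429 r was 0.91 across all fish and 0.69 after the subtraction. The gap between the pairs was larger in the ABC fish than in the WT fish. These coefficients rest on 5 fish each, and the contrast was not tested. Within the 5 ABC fish mir200a had an r of −0.00 with mir141 and 0.99 with MIR200B (ENSDARG00000081868), whereas within the 5 WT fish these were 0.84 and 0.90. Within WT, dre-mir-429 had an r of 0.94 with mir141 and 0.97 with MIR200B (ENSDARG00000080713), against 0.79 with mir200a and 0.76 with MIR200B (ENSDARG00000081868). These coefficients are descriptions over 10 fish whose libraries set both values, and reads that match more than 1 hairpin of the family could also be shared between rows, since their treatment in the counting is not given in the sources used here.

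**Figure D4:**
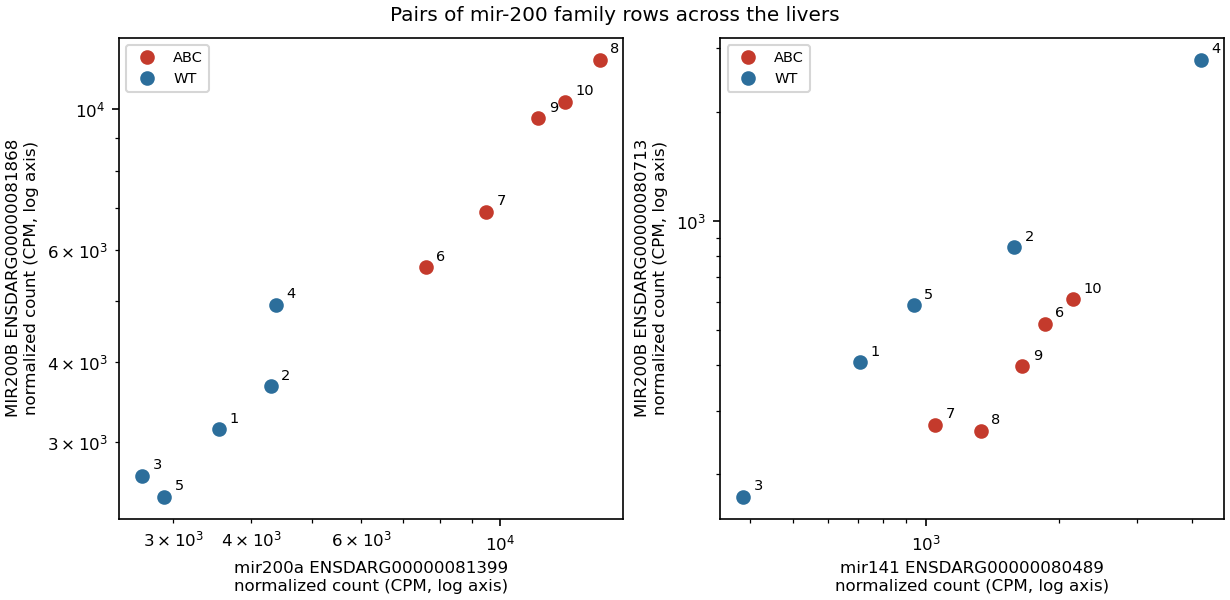
Normalized counts (CPM, both axes log) of mir200a against MIR200B ENSDARG00000081868, left, and of mir141 against MIR200B ENSDARG00000080713, right; points are fish, labelled by replicate. On the left the ABC fish lie above the WT fish on both axes, and on the right the 5 ABC fish lie below the trend of the 5 WT fish, with WT replicate 4 at the top right.

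Ratios between members within a library do not depend on how libraries are scaled. For the seed partners mir200a and mir141, the ratio of counts ranged from 4.09 to 10.8 in ABC livers and from 1.04 to 6.94 in WT livers, which overlapped. On the log2 scale the ratio averaged 2.80 ± 0.548 in ABC livers and 1.65 ± 1.04 in WT livers (SD, n = 5 each), a difference of 1.15 (two-sided exact permutation p = 0.0476, 0.0952 after Benjamini-Hochberg correction over the 2 ratios tested). The higher ratio in ABC therefore failed the correction, and without WT replicate 4, which had the lowest ratio, the difference was 0.75 (exact permutation p = 0.0952). For the seed partners dre-mir-429 and mir429b the difference was 0.93 (two-sided exact permutation p = 0.103, 0.103 corrected), with overlapping groups and few mir429b counts behind it.

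A further 4 ratios were computed after the values had been seen and are given as descriptions. The ratio of mir141 to MIR200B (ENSDARG00000080713) was 3.53 to 5.02 in ABC livers and 1.50 to 2.22 in WT livers, without overlap. WT replicate 4, in which both rows were highest, had the lowest ratio of these, 0.58 on the log2 scale, against 0.68 to 1.15 in the other WT livers, so the separation did not rest on it. The ratio of mir200a to dre-mir-429 was 6.68 to 11.5 in ABC livers and 4.46 to 6.50 in WT livers. That of mir200a to MIR200B (ENSDARG00000081868) was 1.188 to 1.38 in ABC livers and 0.888 to 1.180 in WT livers. Both were also without overlap, but by a narrow margin. The ratio of the 2 rows named MIR200B, ENSDARG00000081868 over ENSDARG00000080713, was 10.8 to 45.2 in ABC livers and 1.76 to 15.3 in WT livers, with overlap. Among single pre-miRNAs tested, every ABC fish lay above every WT fish for 18.1% and below for 16.7%. The share of all pairs of pre-miRNAs whose ratios stand apart was not computed.

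**Figure D5:**
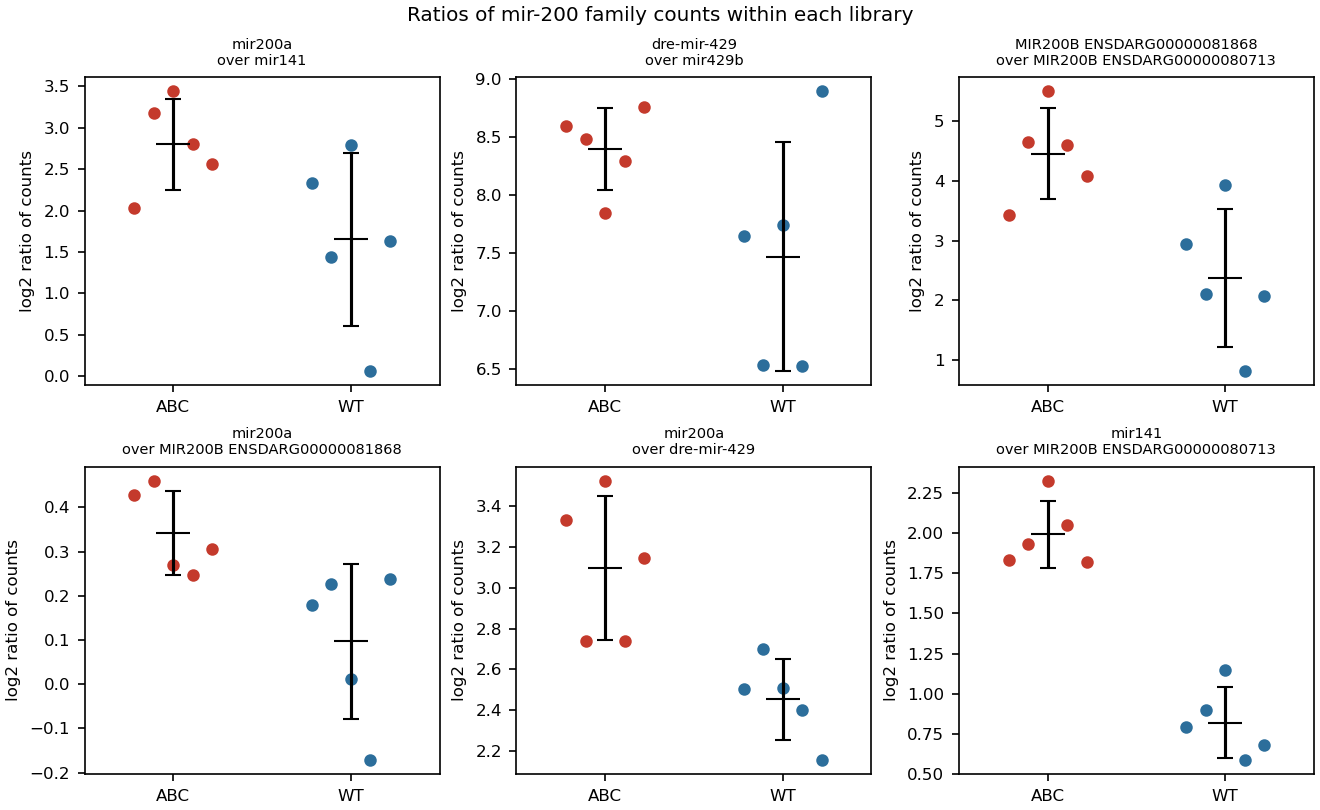
Log2 ratios of raw counts between pairs of mir-200 family rows, with ABC livers left and WT livers right in each panel; points are fish and bars are the mean with SD (n = 5 each), and each panel has its own axis range. The groups overlap for mir200a over mir141, dre-mir-429 over mir429b and MIR200B over MIR200B. They stand narrowly apart for mir200a over MIR200B ENSDARG00000081868 and mir200a over dre-mir-429, and further apart for mir141 over MIR200B ENSDARG00000080713.

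As a share of all pre-miRNA counts, the 6 rows summed to 3.06% ± 0.805 in ABC livers and 0.779% ± 0.335 in WT livers (SD, n = 5 each), ranging from 2.09% to 4.27% in ABC and from 0.499% to 1.31% in WT without overlap. With the most abundant row left out of the total, the shares were 5.06% ± 1.55 in ABC livers and 2.53% ± 0.870 in WT livers, and the groups overlapped. Inside the family, mir200a made up 47.6% ± 1.70 of the counts in ABC livers and 37.4% ± 6.85 in WT livers, without overlap. How often such shares stand apart in other families was not computed. The other called rows overlapped. MIR200B (ENSDARG00000081868) held 37.6% ± 2.48 in ABC livers and 34.7% ± 4.93 in WT livers. For dre-mir-429 the mean share was lower in ABC livers, at 5.70% ± 1.39 against 6.85% ± 1.47 in WT livers. The share of MIR200B (ENSDARG00000080713) was 1.87% ± 0.875 in ABC livers and 7.87% ± 5.17 in WT livers, and that of mir141 was 7.18% ± 2.65 in ABC livers and 13.1% ± 7.12 in WT livers, both with overlap. These are shares of counts, and they describe how the mixture shifted rather than which hairpin was the more abundant.

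Among the 139 other pre-miRNAs tested, those most like mir200a across the 10 fish were MIR190A (Pearson r = 0.97 on log2 CPM), dre-mir-15b (0.95) and mir457a (0.95), each of which was also called up. After subtraction of the group means, so that the difference between ABC and WT no longer entered, the most like were MIR26A2 (0.73), mir194b (0.72) and MIR190A (0.68). The member MIR200B (ENSDARG00000081868) stood above all of these, at 0.98 over all fish and 0.95 after the subtraction. The other members did not: over all fish dre-mir-429 came 10th of 143 at 0.91, mir141 45th at 0.44 and MIR200B (ENSDARG00000080713) 76th at −0.16. After the subtraction they ranked higher, with dre-mir-429 4th at 0.69, mir141 13th at 0.53 and MIR200B (ENSDARG00000080713) 18th at 0.44. The gene mir7149, next to dre-mir-429 in the RefSeq order, had 2 counts in ABC livers and 0 in WT livers, too few to be tested.

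Rows matched by name to other microRNAs known from epithelia were not called. Of 13 listed symbols, 11 were matched to 12 rows, and 6 rows passed the filter. By edgeR 0 were called up and 0 called down, with 0 at an unadjusted p under 0.05. Over all pre-miRNAs tested, edgeR called 43.1% in either direction. By DESeq2 0 of 9 listed rows were called, beside 74 of the 208 pre-miRNAs with at least 1 count. The median L2FC of the 6 rows in edgeR was −0.22, beside −0.11 over all pre-miRNAs. Most of the L2FC intervals were wide, so the lack of calls does not show that these rows were unchanged. The intervals were −2.32 to 1.88 for dre-mir-31 and −1.85 to 1.54 for dre-mir-205. They were −2.61 to 0.99 for mir203b (ENSDARG00000083357) and −2.60 to 0.32 for MIR203B (ENSDARG00000081779). Narrower intervals were found for dre-mir-182, −0.42 to 0.76, and MIR183, −0.90 to 0.46. Matching went by name alone, and the listed mir7a and mir7b symbols did not reach the row MIR7-1 (ENSDARG00000081109). That row was called up, with an L2FC of 0.84 and a standard error of 0.25 (edgeR adjusted p = 0.0180), in overlapping groups. The hairpin mir203b (ENSDARG00000083357), a microRNA of keratinized epithelium, ranged from 67.7 to 324 CPM in ABC livers and from 53.8 to 972 CPM in WT livers. The basal epithelial dre-mir-205 ranged from 31.9 to 200 CPM in ABC livers and from 20.6 to 365 CPM in WT livers. In both cases WT replicate 5 was the highest of all livers, and its mir200a level was 2903 CPM.

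Fragments of longer transcripts in the same libraries gave a thin view of known targets and of epithelial genes. Of 29 listed symbols, 19 were matched to 20 rows, 6 of them without a count, and all rows together held 392 counts in ABC livers and 133 counts in WT livers. Of these, krt8 alone held 279 in ABC livers and 83 in WT livers. Pre-miRNAs took 93.1% to 94.5% of all counts in ABC libraries and 94.7% to 97.5% in WT libraries, without overlap. Other RNA therefore held a larger share of ABC libraries, and the raw counts given here are not scaled for this. Among the targets of the family, zeb1a had 0 counts in ABC livers and 2 counts in WT livers, and zeb2a had 4 counts in ABC livers and 3 counts in WT livers, so neither could be compared. The E-cadherin gene cdh1 had 59 counts in ABC livers and 14 counts in WT livers and did not pass the filter either. The only matched row tested was the epithelial keratin krt8. It had an L2FC of 1.42 and a standard error of 0.65 (edgeR adjusted p = 0.119, unadjusted p = 0.0493). So 0 matched rows were called, out of 1 tested. That is too few to compare with the 29.5% called among the 481 features tested over the whole table. A listed gene under another name in the table was missed by the match, and the fibronectin symbols fn1a and fn1b found no row. The values of krt8 leaned on 1 liver. Without ABC replicate 8, the liver with the most krt8, its L2FC was 0.70.

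Counts of some marker genes of other liver cells differed between the groups. Of 13 biliary symbols 8 were matched and 2 were tested, 1 of them krt8 again, and krt18a.1, a simple-epithelial keratin, was called up with an L2FC of 2.67 and a standard error of 0.59 (edgeR adjusted p = 0.00738), beside 17.5% of the 481 features called up. The 8 biliary rows summed to 59.7 to 251 CPM of all counts in ABC livers and 12.3 to 53.7 CPM in WT livers, without overlap. Of the rows, 0 were without a count. Most of the sum was keratin: of 840 counts in ABC livers, krt18a.1 held 401 and krt8 held 279. ABC replicate 8 held 36.9% of the 840. The list sums here were scaled by total count alone, under which 36.6% of the 481 features were called up and 3.95% down. The biliary rows not tested went in either direction: epcam had 10 counts in ABC livers and 3 in WT livers, anxa4 59 in ABC and 28 in WT, tm4sf4 65 in ABC and 17 in WT, krt18b 13 in ABC and 3 in WT, krt4 11 in ABC and 24 in WT, and cftr 2 in ABC and 2 in WT. These raw counts too were not scaled for the larger share of RNA other than pre-miRNAs in ABC libraries. Of 13 hepatocyte rows 11 were tested, with 0 called up and 8 called down, beside 12.1% of the 481 features called down. The hepatocyte rows summed to 226 to 1096 CPM of all counts in ABC livers and 552 to 4939 CPM in WT livers, which overlapped, and WT replicate 5 held 57.7% of the hepatocyte counts of its group. Without WT replicate 5 the hepatocyte rows called down were 6, without ABC replicate 6 they were 5, and with the total count as the only scaling they were 3. The 4 matched intestinal rows, of which 0 were tested, summed to 3.73 to 5.29 CPM in ABC livers and 2.52 to 30.8 CPM in WT livers, with overlap. The part of these cell types in the levels of the mir-200 family was not tested.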

How the data were processed

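The authors prepared small RNA libraries from total RNA of each liver, and the submitters' processing notes name Novoalign and featureCounts, with versions not given in the sources used here. The deposited table holds raw counts per Ensembl gene of build GRCz10, 1 column per fish, with no normalization. A hairpin's count pools both arms, and how reads matching several hairpins were placed is not given in the sources used here. All sample columns were used, 0 were left out, and 0 rows lacked a gene.

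Rows of pre-miRNAs were filtered with edgeR's filterByExpr defaults (144 of 272 kept), scaled by TMM over pre-miRNAs and tested with the quasi-likelihood test (R 4.3.3, edgeR 4.0.16, limma 3.58.1), with no covariate and Benjamini-Hochberg correction over all kept. Standard errors were derived from the L2FC and the quasi-likelihood F statistic. Intervals come from these standard errors and the total degrees of freedom, residual plus prior. Marker and target lists were tested in the same way over all 481 features kept, with TMM over all features. Ratios were log2 of counts plus 0.5, and correlations used log2 of CPM plus 1. Single values were tested by exact permutation over 5 and 5 fish. The edgeR test was checked on simulated counts with a single dispersion for all rows and no outlying liver. That check did not cover rows as uneven between livers as mir141. DESeq2 1.42.0, other scalings, other filters and leaving out each fish were tried as alternatives. Replicates were separate fish. The edgeR intervals and p-values rest on the spread between fish, estimated partly across rows, and the permutation p-values rest on relabelling the fish.

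Named were every family row, listed genes that passed the filter (at most 5 a list by mean count, with low counts of named targets and markers added after their values were seen) and, for likeness to mir200a, the 3 highest correlations in each of 2 forms. Members and lists were chosen with earlier results of these data known. Names came from the Ensembl and RefSeq tables, in which all 6 family rows were matched.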

Additional observations from a re-analysis of the deposited data

Results flagged for a closer look

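In 5 of 38 groups of 5 livers examined over 19 measures, 1 liver lay far from the others. For independent groups of normally distributed values, chance alone flags about 1 in 20 groups, or 1.9 of these 38. The measures here share rows and fish, so the 5 flagged groups cannot be judged against that rate. Of the 5, 1 concerned the family: MIR200B (ENSDARG00000080713) had 2794 CPM in WT replicate 4, against at most 849 CPM in the other WT livers. The other 4 were microRNAs of the epithelial list in WT replicate 5. MIR203B (ENSDARG00000081779) had 129 CPM there and at most 28.4 CPM in the other WT livers, and mir203b (ENSDARG00000083357) had 972 CPM there and at most 121 CPM elsewhere in WT. In the same liver dre-mir-205 had 365 CPM, against at most 55.3 CPM in the other WT livers, and MIR183 had 43.8 CPM, against at most 21.3 CPM.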

How the results depend on the processing

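The calls of mir200a, MIR200B (ENSDARG00000081868) and dre-mir-429 held under all 20 alternatives, and mir141 and MIR200B (ENSDARG00000080713) were called under none. Leaving out 1 fish gave L2FC ranges of 1.54 to 1.79, 1.27 to 1.64 and 0.91 to 1.21 for the first 3, −0.17 to 0.90 for mir141 and −1.46 to −0.22 for MIR200B (ENSDARG00000080713). Not all 20 alternatives put the calls at risk. A filter of at least 10 counts in at least 5 fish gave the same values for each member. Removing the limit on the L2FC could not undo a call. The sign of mir141 turned with DESeq2's size factors (−0.0094), DESeq2 (−0.031) and the fit over all features (−0.0022), and without WT replicates 1 (−0.14), 3 (−0.17) or 5 (−0.05) or ABC replicates 6 (−0.01) or 10 (−0.08). The count of 62 calls ranged from 54 to 65 without 1 fish and from 47 to 75 otherwise. Upper-quartile scaling moved the median L2FC by 0.17, with 35 up and 19 down. Scaling by total count alone called 1 matched transcript of the target list, krt8. The difference in mir200a over mir141 was 0.75 to 1.44 without 1 fish (exact permutation p of 0.0317 to 0.0952), and missed the threshold without each of WT replicates 2, 4 and 5 and ABC replicates 7 to 10. That in dre-mir-429 over mir429b was 0.69 to 1.28 (1.28 without WT replicate 5, exact permutation p = 0.0159) and, with 1 added to each count, 1.01 (exact permutation p = 0.0476). The cause was not tested. The planned mir-200b over mir-200c ratio was not run, since 0 rows are named mir200c. The 4 further ratios and the refits of the marker lists were chosen after seeing the data. No paired analysis was possible because the labels give no pairing of ABC with WT fish.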

Other observations

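The pre-miRNAs most like mir141 within groups were looked up after its values had been seen. After subtraction of the group means, log2 CPM of MIR10A had a Pearson r of 0.94 with mir141 over the 10 fish, mir459 had 0.83 and dre-mir-31 had 0.72. All of these were highest in WT replicate 4, the WT liver with the most mir141. MIR10A had 9.49 to 23.4 CPM in ABC livers and, in WT livers, 1501 CPM in replicate 4 and 28.2 to 195 CPM in the others. The hairpin mir459 had 8.54 to 124 CPM in ABC livers and, in WT livers, 759 CPM in replicate 4 and 8.15 to 360 CPM in the others. For dre-mir-31 the levels were 57.7 to 522 CPM in ABC livers and, in WT livers, 1184 CPM in replicate 4 and 18.8 to 406 CPM in the others. All 6 family rows were highest among WT livers in this replicate, by 2.65 times the next WT liver for mir141, 3.29 times for MIR200B (ENSDARG00000080713), 1.34 times for MIR200B (ENSDARG00000081868), 1.29 times for mir429b, 1.25 times for dre-mir-429 and 1.02 times for mir200a.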
